A study of Mus musculus with 18 samples.

Results

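Genes that move or convert glutamate were followed in the mouse hippocampus, 9 of the 11656 genes with a usable probe set on the array: Slc17a7, Slc17a6, Slc1a1, Slc1a2, Slc1a3, Glul, Glud1, Got1, and Slc38a1. They were taken as all probe sets annotated to one of these symbols alone, which gave 24 of the 45037 probe sets. Of these 24, 20 had a mean signal above 20 over all arrays and were tested, beside 22932 tested in all. The other 4, namely 1433094_at and 1459014_at of Slc1a2 and 1440491_at and 1439072_at of Slc1a3, had mean signals of 8.51, 8.50, 17.3, and 16.5. A further probe set, 1433095_at, is shared between Slc1a2 and Gm13872 and was not used.

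RNA of C57BL/6J male mice was measured in 6 groups of 3 arrays. Mice were 10 weeks old when intermittent hypoxia treatment (IHT) began, and IHT repeated a 3 min cycle over 8 h each day. In a cycle, nitrogen took the inspired oxygen to 5% for 1 min and air returned it to 21% for 2 min. The Ctrl group was untreated. Samples from IH5D mice were taken right after 5 days of IHT, and those from IH5DR2 mice after a further 64 h of normoxia. As 64 h is not a whole number of days, these 2 groups also differed in the hour of killing. The IH28D group had 28 days of IHT, its control Ctrl28 was reared for 28 days in normoxia, and the 12m group was reared for 12 months. Nothing in the labels tells if arrays of a group stem from different animals, so the p-values measure the spread between arrays. No hour of killing was given for Ctrl, Ctrl28, and 12m. In whole hippocampus, fewer cells of a type and less RNA per cell cannot be told apart.

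Glutamate is the main excitatory transmitter of the hippocampus. Neurons load it into vesicles with the vesicular transporters VGLUT1 (Slc17a7) and VGLUT2 (Slc17a6), and after release it is taken up by the astrocytic carriers GLT-1 (Slc1a2) and GLAST (Slc1a3) and by the neuronal carrier EAAC1 (Slc1a1). Astrocytes turn it into glutamine with glutamine synthetase (Glul), and neurons take glutamine back through carriers such as Slc38a1. Glutamate dehydrogenase (Glud1) and the cytosolic aspartate aminotransferase (Got1) link glutamate to energy metabolism, the second as part of the malate-aspartate shuttle. VGLUT1 marks most pyramidal and granule cells of the hippocampus, whereas VGLUT2 is typical of thalamic and other subcortical inputs.

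Slc17a7 and Got1 passed the test together, in the same direction, in 4 comparisons that share arrays, and the bases upstream of both genes are therefore shown, from RefSeq on GRCm38.p6. Their log2 signals had a Pearson correlation of 0.62 over the 18 arrays, but of -0.65 within groups, so they did not move together there. The 250 bases before each start lie at chr7:45163671-45163920 on the plus strand for Slc17a7 and at chr19:43524606-43524855 on the minus strand for Got1. Capitals mark the letters ACGTG, 1 form of the core of the hypoxia response element, and CCAAT, a common promoter element, each searched on both strands. The other form of that core, GCGTG, was not searched and is not marked.
Slc17a7: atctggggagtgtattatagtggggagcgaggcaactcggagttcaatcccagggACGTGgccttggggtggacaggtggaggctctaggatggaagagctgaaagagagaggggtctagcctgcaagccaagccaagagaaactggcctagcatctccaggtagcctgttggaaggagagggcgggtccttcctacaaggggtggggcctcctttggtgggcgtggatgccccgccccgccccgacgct
Got1: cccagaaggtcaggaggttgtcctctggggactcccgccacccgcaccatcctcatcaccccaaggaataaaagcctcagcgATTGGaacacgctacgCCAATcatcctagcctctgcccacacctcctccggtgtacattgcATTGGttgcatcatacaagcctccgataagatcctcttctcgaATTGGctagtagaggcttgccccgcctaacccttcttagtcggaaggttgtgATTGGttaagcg
Slc17a7 held 1 match to ACGTG, which begins 195 bases before the start, and no match to CCAAT. The promoter of Got1 held 5 matches to CCAAT and none to ACGTG. A promoter was given for 8 of the 9 genes. ACGTG occurred upstream of 1 of these genes and CCAAT upstream of 3, while 16.6% and 33.8% of all 32851 promoters of the same length held them. A match of letters is a description and not a binding site.

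The arrays differed in a measure of RNA quality, and what caused this was not tested. The gap between the 3′ and 5′ control probe sets of Actb and Gapdh, a measure that grows as RNA is broken, was 0.33 to 0.53 (log2) in Ctrl, IH5D, IH5DR2, and IH28D, 0.62 to 0.86 in 12m, and 2.39, 0.82, and 0.97 in Ctrl28. The array with 2.39, Ctrl28 array 1, also stood apart for the members: 7 of their 20 tested probe sets lay over 1 log2 unit from the median of its group. Calls on the 9 genes that involve Ctrl28 are therefore given with and without it. A further array, 12m array 3, stood apart in its region markers, which are given with the results on age. The excitatory neuron marker Camk2a had a mean signal of 3722 in 12m to 5573 in IH28D, and the astrocyte marker Gja1 had 2049 in Ctrl to 2856 in Ctrl28, so the defining markers of the tissue were present. The summed signal of 10 choroid plexus genes ranged from 759 in a 12m array to 22323 in a Ctrl28 array.

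**Figure D1:**
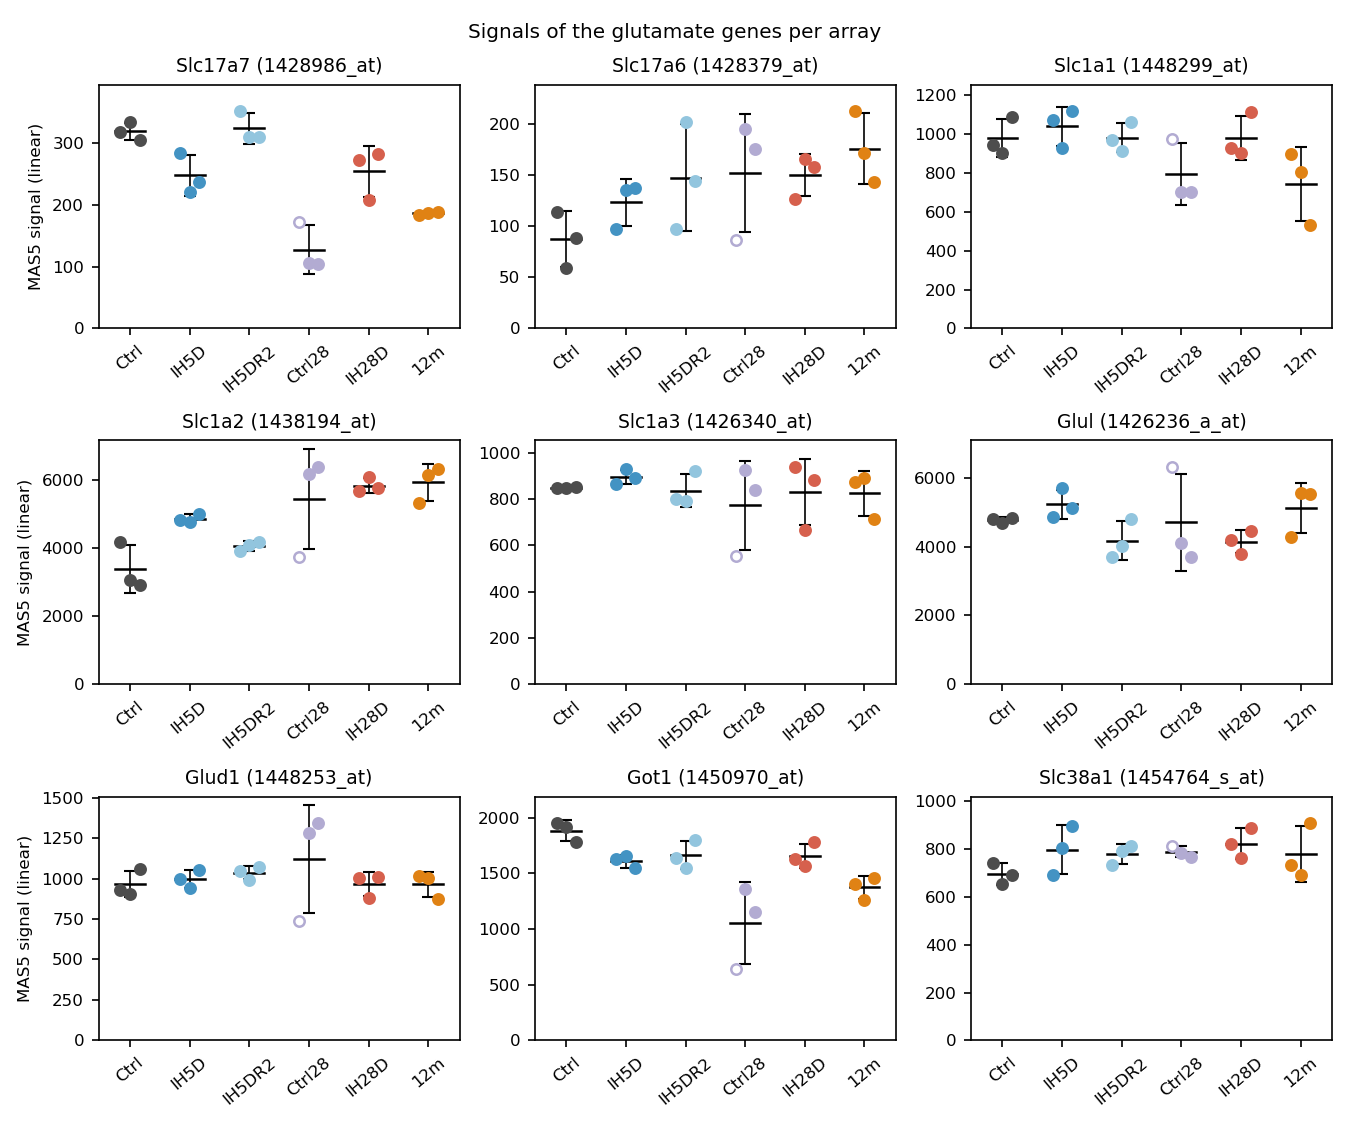
MAS5 signal (linear scale) of the probe set that stands for each of the 9 genes, by group, with 3 arrays per group. Points are arrays, horizontal lines are group means, bars are SDs, and the open point is Ctrl28 array 1. Slc17a7 and Got1 are lowest in Ctrl28, and Slc1a2 is lowest in Ctrl.

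Slc17a7, the vesicular transporter VGLUT1, was low in Ctrl28 and in 12m. Its 1 probe set, 1428986_at, had signals of 318, 333, and 305 in Ctrl, 284, 221, and 237 in IH5D, 352, 309, and 310 in IH5DR2, 173, 106, and 104 in Ctrl28, 273, 207, and 283 in IH28D, and 183, 187, and 188 in 12m. All 3 Ctrl28 arrays lay below every array of the other groups, and all 3 arrays of 12m below every array of Ctrl, IH5D, IH5DR2, and IH28D. In order of mean log2 signal the groups ran Ctrl28, 12m, IH5D, IH28D, Ctrl, and IH5DR2. Of the neighbors in this order, Ctrl28 and 12m differed (log2 difference 0.58, adjusted p = 0.0310), and no other neighboring pair passed. This difference was 0.82 without Ctrl28 array 1 (adjusted p = 0.000970), and it did not pass without Ctrl28 array 2 or 3 or any 1 array of 12m (adjusted p = 0.0622 to 0.0993).

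Slc17a6, the vesicular transporter VGLUT2, had lower signals. With the probe set 1428379_at they were 114, 58.9, and 88.5 in Ctrl, 96.8, 135, and 138 in IH5D, 96.8, 202, and 144 in IH5DR2, 86.1, 195, and 175 in Ctrl28, 126, 166, and 158 in IH28D, and 213, 172, and 143 in 12m. Ctrl was the lowest group and 12m the highest, and arrays of all neighboring groups overlapped. The weaker probe set of the gene, 1418610_at, ranged from 29.9 to 106.

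Among the uptake carriers, Slc1a2 (GLT-1) passed in the fit of all arrays and the others did not with the probe sets that stand for them. With 1438194_at its signals were 4174, 3055, and 2909 in Ctrl, 4816, 4755, and 4991 in IH5D, 3896, 4095, and 4157 in IH5DR2, 3741, 6159, and 6378 in Ctrl28, 5651, 6059, and 5758 in IH28D, and 5304, 6141, and 6301 in 12m. Ctrl was lowest, and every array of IH5D, IH28D, and 12m lay above every Ctrl array. No neighbors in the order Ctrl, IH5DR2, IH5D, Ctrl28, IH28D, and 12m passed the test, although the arrays of IH5DR2 and IH5D did not overlap. Slc1a3 (GLAST; 1426340_at) was level, with group means between 774 ± 193 in Ctrl28 and 895 ± 31.7 in IH5D (SD, n = 3). For Slc1a1 (EAAC1; 1448299_at), group means ran from 745 ± 191 in 12m to 1040 ± 101 in IH5D (SD, n = 3).

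The enzymes behaved unalike. Got1, with the 1 probe set 1450970_at, had signals of 1956, 1914, and 1781 in Ctrl, 1625, 1660, and 1544 in IH5D, 1639, 1552, and 1802 in IH5DR2, 644, 1363, and 1149 in Ctrl28, 1625, 1564, and 1779 in IH28D, and 1404, 1261, and 1462 in 12m. Its 3 Ctrl arrays lay above all arrays of IH5D, Ctrl28, IH28D, and 12m, and Ctrl28 array 1 had the lowest value. Glul, which makes glutamine, had group means between 4147 ± 335 in IH28D and 5226 ± 432 in IH5D (SD, n = 3). Glud1 (1448253_at) had group means between 964 ± 76.7 in 12m and 1120 ± 334 in Ctrl28 (SD, n = 3). The glutamine carrier Slc38a1 had group means between 695 ± 44.9 in Ctrl and 823 ± 63.4 in IH28D (SD, n = 3).

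After 5 days of IHT none of the 9 genes passed the test of limma after Benjamini-Hochberg adjustment, while 6.26% of all probe sets did. Without adjustment 2 genes, Slc1a2 and Slc17a7, had a p below 0.05, beside 27.9% of all probe sets. The methods' t-test also found 2 without adjustment, here Slc17a7 and Got1, beside 21.1%. Slc1a2 came nearest, with a log2 difference of 0.54 ± 0.17 (SE) and an adjusted p of 0.0595, and its IH5D and Ctrl arrays did not overlap. Slc17a7 had a log2 difference of -0.37 ± 0.18 (SE), with an adjusted p of 0.178 and no overlap of arrays. In all, 5 of the 9 genes had arrays that did not overlap, as did 40% of all probe sets. The median log2 difference of the genes was 0.09, against 0.00 for all probe sets.

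The call on Slc1a2 after 5 days depended on the arrays that entered the fit. It passed without Ctrl array 1 (log2 difference 0.70, adjusted p = 0.0185), without Ctrl28 array 1 (adjusted p = 0.00348), and without Ctrl28 array 3 (adjusted p = 0.0458). Leaving out Ctrl28 array 1 also brought Slc17a7 below the threshold (adjusted p = 0.0421), so that 2 of 9 genes passed beside 23% of all probe sets. The labels do not say whether equal replicate numbers mark a pair. Deviations of same-numbered Ctrl and IH5D arrays correlated weakly (0.16, 0.23, and 0.17), so the number was tried as a block, a choice made from these same data. With the number as a block in the fit of all arrays, none passed (Slc1a2 adjusted p = 0.0786) and 3.38% of all probe sets did. In a fit of Ctrl and IH5D alone, Slc1a2 passed without the block (adjusted p = 0.0260, 15.6% of all probe sets). With the block in that fit, Slc1a2 (adjusted p = 0.000628), Slc17a7 (adjusted p = 0.0265), and Got1 (log2 difference -0.23, adjusted p = 0.0271) passed, beside 31.6% of all probe sets.

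After 64 h of normoxia, none of the 9 genes differed from Ctrl by the test of limma, where 4.7% of all probe sets did, and 1 gene had an unadjusted p below 0.05, beside 27.2% of all probe sets. This was Slc17a6, with a log2 difference of 0.75 ± 0.31 (SE) and an adjusted p of 0.137. Without Ctrl28 array 1 it passed (adjusted p = 0.0424), and 2 of the 20 tested probe sets of members did, beside 21.4% of all probe sets. The probe set 1426341_at of Slc1a3, which does not stand for the gene, had a log2 difference of 0.89 with all arrays (adjusted p = 0.210). Its IH5DR2 and Ctrl arrays did not overlap, as for 39.4% of all probe sets. Slc1a2 had a log2 difference of 0.28 (adjusted p = 0.289), and Slc17a7 one of 0.02 (adjusted p = 0.953).

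Between IH5DR2 and IH5D, limma called no member and 0% of all probe sets. Without adjustment 1 gene, Slc17a7, had a p below 0.05, beside 3.82% of all probe sets, and the methods' t-test found 2 genes, Slc17a7 and Slc1a2, beside 6.16%. Signals of Slc17a7 in all 3 IH5DR2 arrays lay above those in IH5D (log2 difference 0.39 ± 0.18 SE, adjusted p = 0.9998). Slc1a2 and Glul also did not overlap, with log2 differences of -0.26 and -0.33, and 15.1% of all probe sets did not. Recovery and the hour of killing cannot be told apart in this comparison.

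After 28 days of IHT, Slc17a7 and Got1 were higher than in Ctrl28, and the other 7 genes did not pass. Slc17a7 rose by 1.02 ± 0.18 (log2, SE), from a mean signal of 128 ± 39.1 to 254 ± 41.1 (SD, n = 3; adjusted p = 0.00172). Got1 rose by 0.72 ± 0.19 (log2, SE), from 1052 ± 369 to 1656 ± 111 (SD, n = 3; adjusted p = 0.0246). For both genes the arrays did not overlap, as for 23% of all probe sets. This made 2 of 9 genes, beside 7.79% of all probe sets. Other probe sets of members also passed: 1439940_at of Slc1a2 fell by 1.49 on the log2 scale (adjusted p = 0.0190), and 1426235_a_at of Glul rose by 0.56 (adjusted p = 0.0426).

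These rises depended on which control group was used. Against Ctrl, Slc17a7 in IH28D had a log2 difference of -0.34 (adjusted p = 0.145) and Got1 one of -0.19 (adjusted p = 0.450), and the gene that passed was Slc1a2, higher by 0.80 ± 0.17 (log2, SE; adjusted p = 0.00336), 1 of 9 beside 31.5% of all probe sets. With Ctrl28 array 1 left out of the fit, Slc17a7 (-0.34, adjusted p = 0.0376) and Slc17a6 (0.83, adjusted p = 0.0139) passed there too, 3 of 9 beside 43.8%. Between IH28D and IH5D, a comparison chosen after the values were seen, limma called none of the 9 genes and 0% of all probe sets, and no gene had an unadjusted p below 0.05, beside 6.99% of all probe sets. The log2 difference of Slc17a7 between these treated groups was 0.03, with a 95% interval of -0.34 to 0.40. For Got1 it was 0.04, with a 95% interval of -0.35 to 0.43.

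Without Ctrl28 array 1, the rise of Slc17a7 in IH28D was 1.26 (log2, adjusted p = 1.10e-05) and that of Got1 was 0.40 (adjusted p = 0.0168). Glud1 then fell by 0.45 on the log2 scale (adjusted p = 0.00873), which made 3 of 9 genes beside 14% of all probe sets. Got1 did not pass when any 1 IH28D array was left out (adjusted p = 0.0545 to 0.0887). The Glul probe set did not pass without any of 13 arrays (adjusted p = 0.0515 to 0.162), and that of Slc1a2 did not without Ctrl28 array 2 or 3 or IH28D array 2 or 3 (adjusted p = 0.0592 to 0.0732). With the 3′ to 5′ gap of each array as a covariate, the difference of Got1 was 0.06 (adjusted p = 0.835) and that of Slc17a7 was 1.49 (adjusted p = 7.55e-05). Ctrl28 array 1 largely set the slope of this covariate, so these values cannot show the differences at an equal gap. In a fit of Ctrl28 and IH28D alone neither passed (adjusted p = 0.166 for Slc17a7 and 0.299 for Got1), where 0.0611% of all probe sets did.

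**Figure D2:**
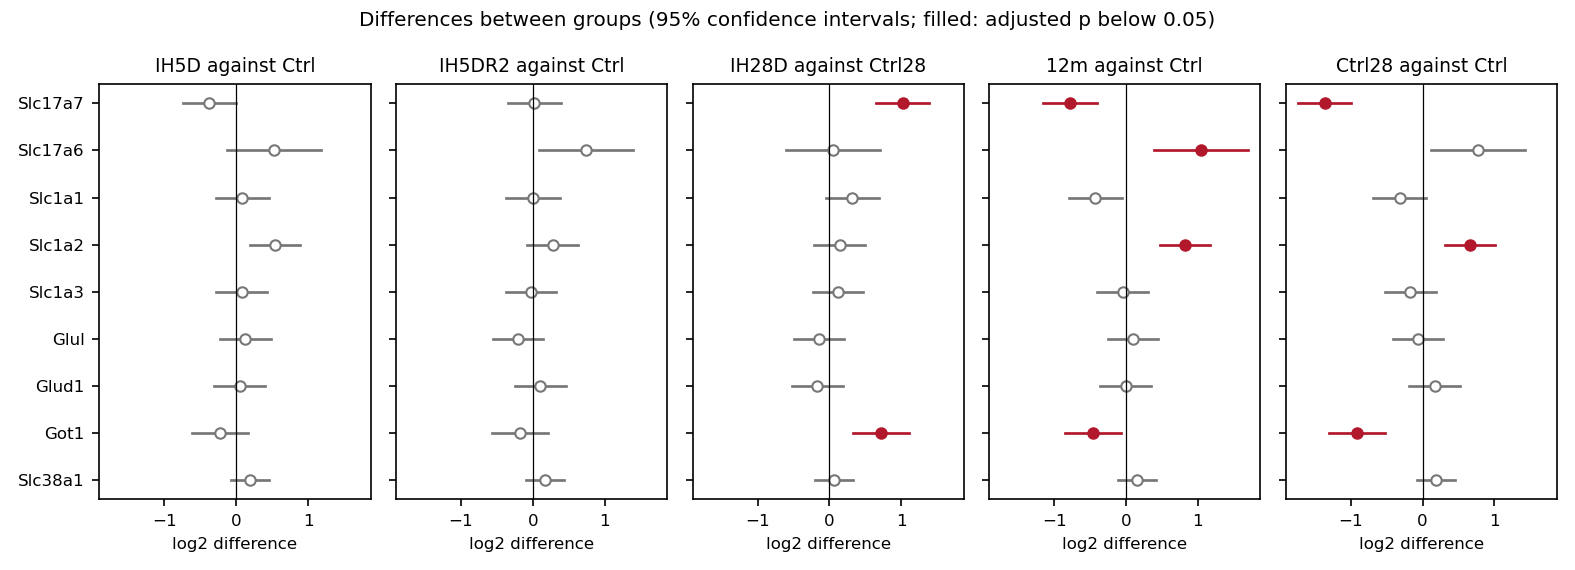
Log2 difference of each gene between groups, with 95% confidence intervals from the fit of all arrays, in 5 comparisons. Filled red points have an adjusted p below 0.05 and open grey points do not. Slc17a7 and Got1 are above 0 in IH28D against Ctrl28 and below 0 in 12m and in Ctrl28 against Ctrl.

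At 12 months, 4 of the 9 genes differed from Ctrl, 2 in each direction, where 50.6% of all probe sets did. Slc1a2 rose by 0.82 ± 0.17 (log2, SE), from 3379 ± 692 to 5915 ± 536 (SD, n = 3; adjusted p = 0.000865). Slc17a6 rose by 1.05 ± 0.31 (log2, SE), from 87.1 ± 27.6 to 176 ± 35.2 (SD, n = 3; adjusted p = 0.0105). Slc17a7 fell by 0.78 on the log2 scale (SE 0.18), from 319 ± 14.1 to 186 ± 2.7 (SD, n = 3; adjusted p = 0.00183). Got1 fell by 0.45 (log2, SE 0.19), from 1884 ± 91.4 to 1376 ± 104 (SD, n = 3; adjusted p = 0.0491). The 2 vesicular transporters thus moved in opposite directions, and the arrays of these 4 genes and of Slc1a1 did not overlap, as for 61.3% of all probe sets. Slc1a1 had a log2 difference of -0.43 ± 0.18 (SE) and an adjusted p of 0.0526. Slc1a3, Glul, Glud1, and Slc38a1 had log2 differences between -0.05 and 0.16.

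The fall of Got1 did not pass when any 1 array outside Ctrl28 was left out (adjusted p = 0.0549 to 0.142), and the rise of Slc17a6 did not without Ctrl array 2 (0.79, adjusted p = 0.0695). Without Ctrl28 array 1, Slc1a1 fell as well (adjusted p = 0.0228), which made 5 of 9 genes beside 58.8% of all probe sets. Against Ctrl28 the direction of Slc17a7 turned: it was higher in 12m by 0.58 (adjusted p = 0.0310), the gene that passed of the 9 there, beside 16.8% of all probe sets. Got1 had a log2 difference of 0.45 (adjusted p = 0.0984) in that comparison, Slc1a2 one of 0.16, and Slc17a6 one of 0.28. Without Ctrl28 array 1, Slc17a7 was higher in 12m by 0.82, Got1 had a log2 difference of 0.13 (adjusted p = 0.416), and Slc1a2 and Slc17a6 both had -0.09. Glul (0.38, adjusted p = 0.0485) then rose and Glud1 fell (-0.45, adjusted p = 0.00826), in all 3 of 9 beside 17.3% of all probe sets.

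Markers of cell types were counted beside these results, against the 50.6% of all probe sets that passed in 12m. Of 17 astrocyte genes tested, 2 rose and 7 fell, a share of 52.9% that is near that of all probe sets, and their summed signal was 13326 to 14332 in 12m and 15087 to 17794 in Ctrl. Of the defining astrocyte markers, Aqp4 rose by 1.17 (log2) and Gfap fell by 1.48, beside the rise of Slc1a2. Signals of Gfap spread from 54.1 to 234 in 12m, against 314 to 444 in Ctrl. Aldh1l1 fell by 0.60 (log2, adjusted p = 0.0218), and Gja1 had a log2 difference of 0.03. Of 12 genes of excitatory neurons, none rose and 4 fell, a share of 33.3%, with summed signals of 13401 to 14356 in 12m and 15669 to 17813 in Ctrl, beside the fall of Slc17a7. Of 10 genes of thalamus and habenula, 2 rose and 1 fell, a share of 30%. Their summed signal was higher in 12m (887 to 959) than in Ctrl (789 to 843), and their median log2 difference was -0.25, against -0.08 for all probe sets. The thalamic marker Tcf7l2 had signals of 29.8 to 43.0 in 12m and 38.6 to 54.6 in Ctrl. Of the other thalamic markers, Prkcd fell by 1.33 (log2, adjusted p = 0.00178) and Lef1 had a log2 difference of -0.12.

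The list with the lowest median in 12m was choroid plexus, with 8 of 10 genes down and a median log2 difference of -3.23. Its summed signals were 1808, 759, and 994 in 12m and 16305, 20167, and 1906 in Ctrl, so that 1 Ctrl array was near 12m. Of 11 oligodendrocyte genes, 3 rose and 6 fell, with a median of -0.67. Array 3 of 12m differed from the others of its group: the summed signal of neocortex genes was 8033 in it and 2847 and 2750 in the other two, against 2035 to 2907 in Ctrl. For striatum and septum it was 2653 against 1358 and 1202, and the mean log2 signal of excitatory neuron genes was 8.59 against 9.28 and 9.30. Without this array, a choice made after the values were seen, Slc17a7 (-0.78, adjusted p = 0.00560), Slc17a6 (1.19, adjusted p = 0.0121), and Slc1a2 (0.78, adjusted p = 0.00453) still passed against Ctrl and Got1 did not (-0.50, adjusted p = 0.0618), 3 of 9 beside 45.7% of all probe sets. Whether the shifts in these markers play a part in the results on the transporters was not tested.

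The 2 control groups differed from each other in 3 of the 9 genes, where 32.9% of all probe sets did. In Ctrl28, Slc17a7 fell by 1.36 on the log2 scale (SE 0.18, adjusted p = 4.13e-05) and Got1 fell by 0.91 (SE 0.19, adjusted p = 0.00157). Slc1a2 rose by 0.66 ± 0.17 (log2, SE; adjusted p = 0.00674), although array 1 of Ctrl28 lay within the range of Ctrl. Without that array, Slc17a7 fell by 1.60, Got1 fell by 0.59, and Slc1a2 rose by 0.91. Then Slc17a6 (1.14, adjusted p = 0.00287) and Glud1 (0.45, adjusted p = 0.00221) rose too and Slc1a1 fell (-0.48, adjusted p = 0.0261), in all 6 of 9 genes beside 51.2% of all probe sets. In a fit of Ctrl and Ctrl28 alone, Slc17a7 passed (adjusted p = 0.0194), while Got1 (adjusted p = 0.0647) and Slc1a2 (adjusted p = 0.112) did not, 1 of 9 beside 9.66% of all probe sets. With the replicate number as a block in that fit, none of the 9 genes and 0% of all probe sets passed. Of 12 genes of excitatory neurons, 1 rose and 4 fell in Ctrl28, and of 17 astrocyte genes 3 rose and 7 fell, shares of 41.7% and 58.8%. They were 3 and 4, and 3 and 8, without Ctrl28 array 1, shares of 58.3% and 64.7% beside the 51.2% of all probe sets. The Ctrl28 samples were also registered apart, with record numbers outside the unbroken run of all other samples. The labels do not say whether these arrays were processed apart as well. The 28 days of rearing cannot be told apart from whatever else set the Ctrl28 arrays apart.

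**Figure D3:**
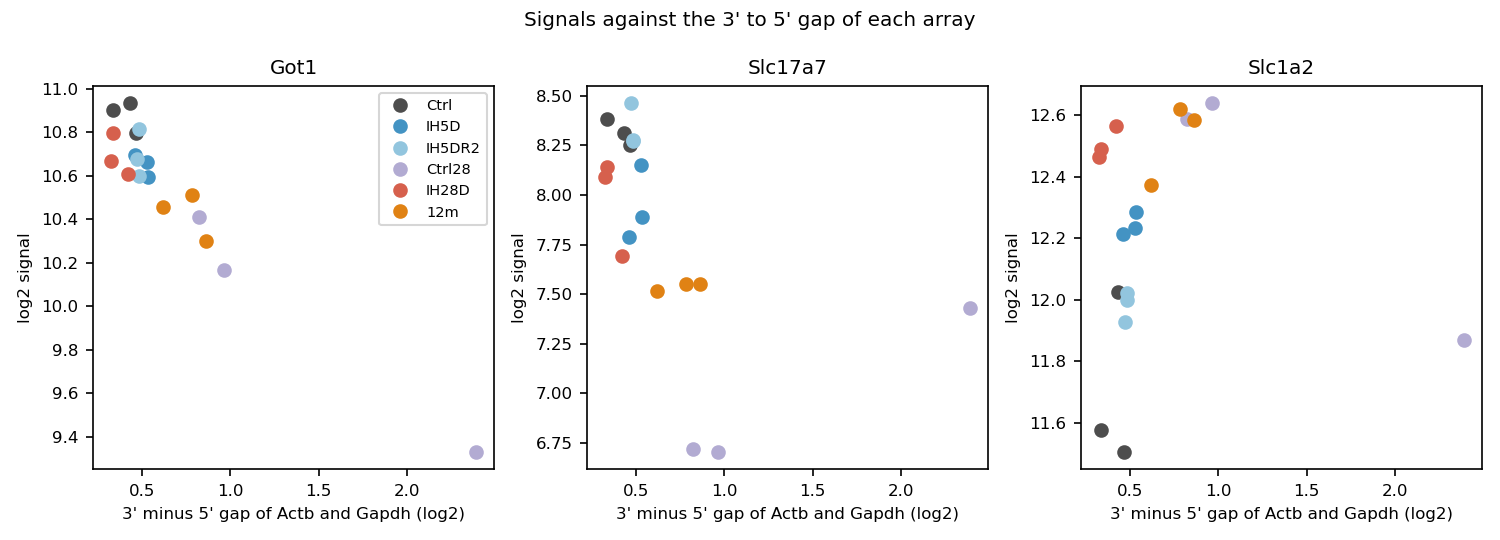
Log2 signal of Got1, Slc17a7, and Slc1a2 against the gap between 3′ and 5′ control probe sets of Actb and Gapdh (log2) on each of 18 arrays, colored by group. Got1 falls along the gap over all groups, and the point at 2.39 is Ctrl28 array 1.

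Got1 followed the 3′ to 5′ gap over the 18 arrays, with a Pearson correlation of -0.96, and of -0.87 without Ctrl28 array 1. For Slc17a7 the correlations were -0.50 and -0.83, and for Slc1a2 they were -0.02 and 0.55. The arrays share groups, so these are descriptions. With the gap as a covariate, the difference of Got1 between Ctrl28 and Ctrl was -0.27 (adjusted p = 0.0800) and between 12m and Ctrl was -0.23 (adjusted p = 0.0429), while Slc17a7 had -1.80 and -0.93 and Slc1a2 had 1.10 and 0.98 in the same comparisons. Within groups the gap spread widely in Ctrl28 alone (2.39, 0.82, and 0.97), so Ctrl28 array 1 largely set the slope of the covariate. Slc17a7 had signals of 173, 106, and 104 in these arrays. The adjusted values therefore cannot show what the differences would be at an equal gap.

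The effect of 28 days of IHT differed from that of 5 days in 2 of the 9 genes, where 7.12% of all probe sets differed. The difference, IH28D minus Ctrl28 less IH5D minus Ctrl, was 1.40 ± 0.25 for Slc17a7 (log2, SE; adjusted p = 0.00322) and 0.95 ± 0.26 for Got1 (log2, SE; adjusted p = 0.0358). For both genes the estimate at 28 days was above 0. At 5 days it was below 0 but did not pass (limma adjusted p = 0.178 for Slc17a7 and 0.425 for Got1). The treated groups, IH28D and IH5D, differed by 0.03 for Slc17a7 and 0.04 for Got1. The control groups, Ctrl28 and Ctrl, differed by -1.36 and -0.91. The difference of the effects is that of the treated groups less that of the control groups, so this regroups the same values. What set the control groups apart, and whether IHT offset it in IH28D, was not tested. Without Ctrl28 array 1 the difference was 1.64 for Slc17a7 and 0.63 for Got1, and Slc1a2 (-0.65, adjusted p = 0.00900) and Glud1 (-0.50, adjusted p = 0.0172) passed too, 4 of 9 beside 25.5% of all probe sets. Got1 did not pass when any 1 array of Ctrl, IH5D, or IH28D was left out (adjusted p = 0.0510 to 0.0871).

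Probe sets of the same gene did not always move together. For Slc1a2, 1438194_at rose in 12m, 1451627_a_at fell by 0.82 on the log2 scale (adjusted p = 0.00226), and 1439940_at had a log2 difference of 0.41 (adjusted p = 0.363). The last of these had signals of 95.8, 57.3, and 47.4 in Ctrl and 87.8, 341, and 313 in Ctrl28, a rise of 1.72 (log2, adjusted p = 0.00207), and of 2.36 without Ctrl28 array 1. All arrays of IH5D, IH5DR2, IH28D, and 12m lay between 66.4 and 103 for it, so it was high in 2 arrays of Ctrl28.

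For Glul, the weaker probe set 1426235_a_at fell in 12m (-0.71, adjusted p = 0.00199) and in Ctrl28 (-0.77, adjusted p = 0.00206), while 1426236_a_at had log2 differences of 0.09 and -0.06. Slc38a1 was alike in this: 1415903_at fell by 0.72 in 12m (adjusted p = 0.00823) and 1454764_s_at had a difference of 0.16. The other tested probe sets of Slc1a3 (1452031_at, 1443749_x_at, and 1426341_at), Slc1a1 (1425415_a_at and 1460386_a_at), Glud1 (1416209_at), and Slc17a6 (1418610_at) did not pass in these comparisons. Over the 20 probe sets, which repeat 9 genes, 2 rose and 5 fell in 12m, and 2 rose and 3 fell in Ctrl28, beside 50.6% and 32.9% of all probe sets. When Ctrl28 array 1 was left out, 4 rose and 7 fell in 12m, and 7 rose and 4 fell in Ctrl28, beside 58.8% and 51.2%. Where on the transcripts the probe sets lie was not analysed here. Taking the mean of all probe sets of a gene, the 12m difference of Slc1a2 was 0.14 (adjusted p = 0.517) and that of Slc17a6 was 0.74 (adjusted p = 0.0516).

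**Figure D4:**
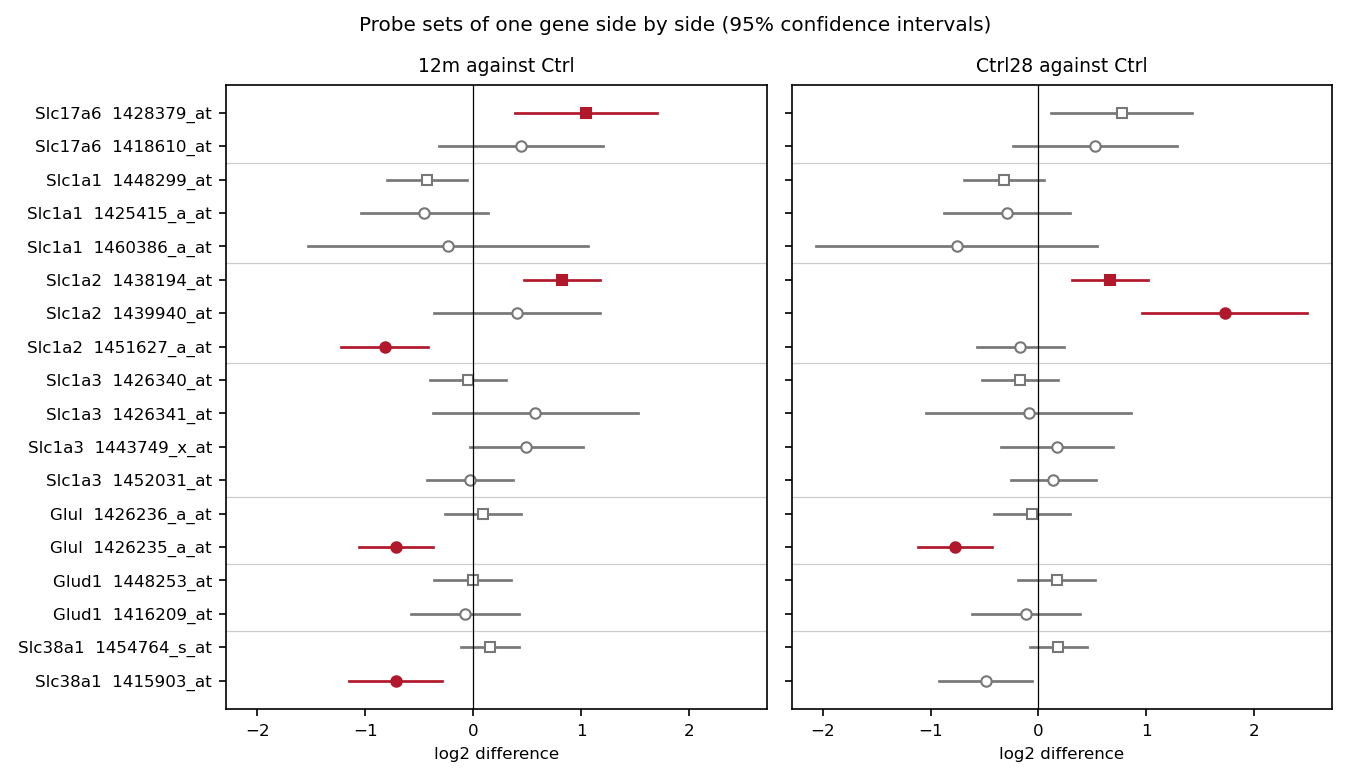
Log2 difference of every tested probe set, with 95% confidence intervals, for the 7 genes with several, in 12m and in Ctrl28 against Ctrl. Squares stand for the gene, circles are its other probe sets, and filled red symbols have an adjusted p below 0.05. Slc1a2 has probe sets called in opposite directions in 12m.

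Other genes that handle glutamate and GABA were counted beside the members. Of 37 such genes tested, with the 9 members left out, 3 rose and 19 fell in 12m. Their median log2 difference was -0.53, against -0.08 for all probe sets. The share of 59.5% stood beside 50.6% of all probe sets. It was 53.3% of all in a fit of 1 probe set per gene, as the list has, and 59.1% with a minimum signal of 50. The falls with the smallest p were Slc25a22, a mitochondrial glutamate carrier (-0.84, adjusted p = 0.000179), Slc25a1, the citrate carrier (-0.95, adjusted p = 0.000197), and Asns, asparagine synthetase (-0.72, adjusted p = 0.000208). Slc38a2, a glutamine carrier (0.80), Gad2, which makes GABA (0.97), and Slc7a11, which exchanges cystine for glutamate (1.18), rose. Got2, the mitochondrial partner of Got1 and named here after its value was seen, fell by 0.51 (log2, adjusted p = 0.00234).

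In Ctrl28 against Ctrl, 1 of the 37 genes rose and 14 fell, with a median of -0.42 against 0.03. This was 40.5%, beside 32.9% of all probe sets, 37.8% in a fit of 1 probe set per gene, and 41.8% with a minimum signal of 50. Leaving out Ctrl28 array 1, 5 of the 37 genes rose and 18 fell, 62.2% beside 51.2% of all probe sets. Ogdh, a subunit of the oxoglutarate dehydrogenase complex (-1.20), Slc25a22 (-1.11), and Slc3a2, the heavy chain of amino acid exchangers (-0.95), fell, and Slc38a2 rose by 0.82. In IH28D against Ctrl28, 3 rose and 1 fell, 10.8% beside 7.79% of all probe sets and 8.49% in a fit of 1 probe set per gene. Ogdh (0.79, adjusted p = 0.000932), Slc25a22 (0.81, adjusted p = 0.00170), and Slc25a11, the oxoglutarate carrier of the malate-aspartate shuttle (0.46, adjusted p = 0.0399), rose. Mdh2, the mitochondrial malate dehydrogenase, fell by 0.49 (adjusted p = 0.0367). With 2 arrays of Ctrl28, array 1 left out, 7 rose and none fell, 18.9% beside 14%. Ogdh (0.83) and Slc25a22 (0.98) then passed, while Slc25a11 (0.30, adjusted p = 0.0736) and Mdh2 (-0.30, adjusted p = 0.0660) did not. These comparisons share the Ctrl28 arrays.

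After 5 days of IHT, Gad2 (0.75, adjusted p = 0.0399) and Slc38a2 (0.57, adjusted p = 0.0437) rose and Slc6a13, a GABA carrier (-1.28, adjusted p = 0.0439), fell, 3 of 37 beside 6.26% of all probe sets, and the median of the 37 genes was -0.20 against 0.00. None of the 37 passed in IH5DR2 against Ctrl or against IH5D. The effect of IHT at 28 days was above that at 5 days in 6 of the 37 genes and below it in none. This was 16.2%, beside 7.12% of all probe sets, 9.65% in a fit of 1 probe set per gene, and 11.3% with a minimum signal of 50. Slc25a22 (1.11), Ogdh (1.003), and Slc25a11 (0.78) had the smallest p. Without Ctrl28 array 1 the effect at 28 days was above in 14 and below in 1, 40.5% beside 25.5%.

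The genes most alike to each member over the 18 arrays were found by the Pearson correlation of log2 signals with 1 probe set per gene. For Slc17a7 these were Ctxn1 (0.97) and Mgrn1 (0.97), for Slc1a2 they were Kcnma1 (0.96) and Mindy2 (0.95), and for Got1 they were Aamp (0.95) and Fam171a1 (0.95). Glud1 was most like Stx12 (0.97) and Add3 (0.90), Slc1a1 most like Cacna1h (0.91) and Astn1 (0.91), and Slc17a6 most like Plxnc1 (0.91) and Ankrd29 (0.89). Glul (Atp6v1d, 0.85, and Cox15, 0.84), Slc1a3 (Zcchc24, 0.84, and Tfdp1, 0.84), and Slc38a1 (Plcxd2, 0.84, and Pdzrn3, 0.79) had weaker partners. All of these values share the same arrays, groups, and RNA quality.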

How the data were processed

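The authors computed MAS5 signals from the probe intensities and deposited them as log2 values. Their 2% trimmed mean, unlogged, was 100.03 to 100.04 on all 18 arrays. Median signals per array were 18.1 to 24.3, and having 3 arrays per group limits the precision. All 22932 non-control probe sets whose mean signal exceeded 20 entered a single fit in limma 3.58.1 under R 4.3.3, with version 1.17.8 of the data.table package. It estimated 1 mean for each of the 6 groups, used a mean-variance trend, and left 12 degrees of freedom. P-values were adjusted over all of them by the method of Benjamini and Hochberg, and an adjusted p below 0.05 was a call. The tested probe set of highest mean signal stood for a gene. The fit was tested on simulated data.

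The 9 members and the gene lists were chosen with earlier results of these data known. Named are all members with their probe sets and, from the list of glutamate and GABA handling, the 3 rises and 3 falls of smallest p per comparison, and per member the 2 most correlated genes. Replicate numbers came from the labels. Deviations of same-numbered Ctrl and IH5D arrays correlated at 0.16, 0.23, and 0.17, while 12 of 45 such correlations over all groups exceeded 0.1. The number was tried as a block for them, although the labels name no pairing. Alternatives changed the minimum signal, scaling, variance model, array weights, samples, blocks, and test. The methods' t-test is the test of the study's methods on the same arrays.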

Additional observations from a re-analysis of the deposited data

Results flagged for a closer look

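The effect of IHT on 3 probe sets of the glutamate genes differed between 28 and 5 days by the test of the difference itself. For Slc17a7 the effect at 28 days was above that at 5 days by 1.40 (log2, limma adjusted p = 0.00322). For Got1 it was above by 0.95 (adjusted p = 0.0358). The probe set 1439940_at of Slc1a2 went the other way, with a difference of -1.87 (adjusted p = 0.0353), and its call ended without any of 10 arrays, all of Ctrl, IH5D, Ctrl28, or IH28D (adjusted p = 0.0581 to 0.0968). All 3 differences use the Ctrl28 arrays. Between the treated groups, IH28D and IH5D, the log2 differences were 0.03 for Slc17a7, 0.04 for Got1, and -0.15 for 1439940_at. Between the control groups, Ctrl28 and Ctrl, they were -1.36, -0.91, and 1.72. Groups of 3 arrays were not screened for single outlying values.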

How the results depend on the processing

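The number of the 9 genes called moved with the fit. Beside each count stands the share of all probe sets called in the same fit, which moved too. With array weights it was 2 for IH5D against Ctrl (26.5%), 2 for IH5DR2 against Ctrl (26.9%), 4 for IH28D against Ctrl28 (26.4%), 6 for Ctrl28 against Ctrl (61.4%), and 5 for the difference of the IHT effects (33.2%). With each array's gap between 3′ and 5′ probe sets in the model, a slope set largely by Ctrl28 array 1, it was 2 for IH5D (24.4%), 1 for IH5DR2 (21.9%), 6 for Ctrl28 (48.1%), and 4 for the difference (27.8%). With the compared groups alone it was 1 for IH5D (15.6%), 0 for IH28D (0.0611%), 1 for Ctrl28 (9.66%), and 1 for the difference (3.56%). With the replicate block in such a fit it was 3 (31.6%), 0 (0.0611%), 0 (0%), and 1 (1.74%), and with the block in the fit of all arrays the counts stayed within 1.5 times. The labels do not say that equal numbers mark a pair or a batch. Over all groups same-numbered correlations of deviations ran from -0.32 to 0.30, and 7 of 18 arrays correlated best with their own number. The methods' t-test gave 2 for IH5D (21.1%), 2 for IH5DR2 against IH5D (6.16%), and 1 for IH28D (9.66%) without adjustment, and after adjustment 0 for IH28D (0.00436%), 2 for 12m (12.7%), and 0 for Ctrl28 (0%). A minimum signal of 50 gave 1 for IH5D (10%), and no minimum (2.46%), quantile normalization (6.5%), or no variance trend (6.03%) each gave 1 for the difference. Leaving out 1 array gave 0 to 2 for IH5D (0.0436% to 23%), 0 to 1 for IH5DR2 (0% to 21.4%), 0 for IH5DR2 against IH5D (0% to 0.0262%), 1 to 3 for IH28D (3.77% to 14%), 2 to 5 for 12m (37.1% to 58.8%), 3 to 6 for Ctrl28 (19.6% to 51.2%), and 1 to 4 for the difference (3.08% to 25.5%).

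With the control groups exchanged the counts were 2 for IH5D (6.04%), 2 for IH5DR2 (8.99%), 1 for IH28D (31.5%), and 1 for 12m (16.8%), and without Ctrl28 array 1, an alternative chosen after the values were seen, 6 (18.4%), 4 (20.8%), 3 (43.8%), and 3 (17.3%). With all arrays, these log2 differences turned: Slc1a2 in IH5D (-0.12), Slc17a7 (-0.34), Got1 (-0.19), 1426235_a_at of Glul (-0.21), and 1439940_at of Slc1a2 (0.23) in IH28D, and Slc17a7 (0.58), Got1 (0.45), and 1426235_a_at of Glul (0.060) in 12m. The cause was not tested. Having 3 arrays per group and signals near 20 limits what could pass.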
